A study of Mus musculus with 12 samples.

Results

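On these miRNA arrays 592 of the 1735 probes named for a miRNA carry a human or rat name but no mouse name, and they are described here in mouse liver. They were taken by name: human (hsa) or rat (rno) miR or let names, with every probe that also had a mouse (mmu) name or a name of the manufacturer's miRPlus series left out. Of the 592 probes, 533 have a human name only, 44 a rat name only and 15 both, and 117 names carry the star of a minor strand. They were set beside 595 mouse-named and 119 viral miRNA probes and the miRPlus probes of the same arrays.

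The RNA came from the median liver lobe of male B6C3F1 mice, 27 to 30 days old. The BaP group (6 samples) had received benzo(a)pyrene, a polycyclic aromatic hydrocarbon that liver enzymes convert into products that react with DNA, as 3 daily doses of 150 mg/kg. The vehicle group (6 samples) had received corn oil alone, and both were sampled 4 h after the last dose. Collections at another time that the design names were not analysed here. Each of the 12 arrays paired 1 liver RNA (Hy5 dye) with a reference pooled from 10 mouse tissues (Hy3 dye), and each probe was printed as 4 spots.

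A miRNA is a short RNA that guides a silencing complex to partly complementary transcripts, mainly through its seed (bases 2 to 8 from the 5′ end). Many mammalian miRNAs are identical or nearly identical between species, so a probe designed for the human or rat form can bind the mouse form. Others come from clusters found in primates only, and several short sequences once listed as miRNAs were later assigned to transfer RNAs or other structured RNAs. A capture probe reports whatever labelled RNA binds it, so its name is not the identity of the RNA bound.

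The mouse miRNAs that bear on the results are printed from RefSeq (GRCm38.p6), with the seed in capitals. They are mouse forms of the numbers in the probe names, not the probe sequences. The first pair belongs to the probe hsa-miR-215. The hepatic miR-192 and the related miR-215 share their seed and differ at 3 of 21 positions. They lie at chr19:6264857-6264877 (plus strand) and chr1:185313610-185313630 (plus strand).
mmu-miR-192-5p: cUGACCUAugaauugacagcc
mmu-miR-215-5p: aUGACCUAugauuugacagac
The next set is shown because members of the growth-associated miR-17 family had both a human-named and a mouse-named probe. Mouse miR-17 and miR-106a differ at 1 of 23 positions, miR-17 and miR-20a at 2, and all share their seed. Their positions are chr14:115043684-115043706 (plus), chrX:52742541-52742563 (minus) and chr14:115044183-115044205 (plus).
mmu-miR-17-5p: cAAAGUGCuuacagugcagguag
mmu-miR-106a-5p: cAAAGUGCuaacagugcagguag
mmu-miR-20a-5p: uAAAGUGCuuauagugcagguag
The last set belongs to numbers whose probes lay at the ends of the range of liver over reference ratios. These are the star strand of miR-25 (chr5:138165370-138165391, minus), miR-1264 (chrX:147010655-147010676, plus), the muscle miRNA miR-133b (chr1:20682834-20682855, plus), the gonadal miR-202 (chr7:139957732-139957752, minus), and miR-322 (chrX:53054306-53054327, minus), the mouse counterpart of human miR-424.
mmu-miR-25-5p: aGGCGGAGacuugggcaauugc
mmu-miR-1264-3p: cAAAUCUUauuugagcaccugu
mmu-miR-133b-3p: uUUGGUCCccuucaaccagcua
mmu-miR-202-5p: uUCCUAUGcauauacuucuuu
mmu-miR-322-5p: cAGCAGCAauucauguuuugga

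The first question was which of the probes gave a signal in mouse liver at all. A spot counted as above background when its net signal (mean signal minus local background) was more than 2.6 scaled median absolute deviations above the median of the 28 negative control spots on that array, and a probe when at least 3 of its 4 spots did. By this measure the liver channel showed 91 of the 592 probes (15.4%) on every one of the 12 arrays, 163 on some and 338 (57.1%) on none. Over all 1735 miRNA probes the share on all 12 arrays was 19.1%. It was 25.9% for mouse-named, 17.9% for miRPlus and 8.4% for viral names, the last a measure of signal on probes whose named RNA is foreign to mice. In the reference channel 90 of the 592 were above background on all 12 arrays, and 69 were so in both channels on every array. With bulk RNA, fewer cells of a type and less RNA per cell cannot be told apart.

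The share of the 592 seen per array ran from 17.9% to 29.4% (median 21.6%) on BaP arrays and from 17.7% to 37.7% (median 21.0%) on vehicle arrays. The 2 highest shares, 29.4% on BaP 1 and 37.7% on vehicle 1, came from the arrays of the first scan day, whose negative controls gave the lowest liver thresholds (2.89 and 1.92 intensity units, against 16.2 to 28.8 on the others). Without these 2 arrays, a choice made after the data were seen, 91 probes were still above background on all arrays and 418 on none. With a multiplier of 5 in place of 2.6 the count on all 12 arrays was 70. On the BaP 3 array 1 negative control spot read 34864, and with the highest control spot of each array as its threshold the count on all 12 arrays was 0.

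Signals spanned a wide range. Among the 91 probes, the median net liver signal over the 12 arrays ran from 26.2 to 31862 intensity units, with 10 probes above 1000 and 43 above 100. The brightest was hsa-miR-1826, with net liver signals from 22881 to 36259 (median 30336) on BaP arrays and from 26880 to 43470 (median 31862) on vehicle arrays. Liver and pool lay close together, with a mean log2 liver over reference ratio of 0.14 ± 0.12 on BaP arrays and 0.12 ± 0.11 on vehicle arrays (SD, n = 6 each). Each value of liver over reference below is on the log2 scale after an offset of 50, so ratios of dim probes are understated. The authors' deposited value table runs the other way, reference over liver, and holds none of the 592 probes.

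Next came hsa-miR-1280, a name since assigned to a leucine transfer RNA fragment, with a median of 7725. The probes hsa-miR-1827, hsa-miR-1308 and hsa-miR-1285 followed with medians of 5866, 4307 and 3481. Scanner flags touched 47 of 48 spots of hsa-miR-1827 and 43 of 48 of hsa-miR-1308, so their ratios rest largely on flagged spots. The star-strand probes hsa-miR-25* and hsa-miR-122* had medians of 1595 and 1478, hsa-miR-215 of 1474 and hsa-let-7a of 1145. All 9 of these probes were above background on all 12 arrays.

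A high mean did not always mean a signal. The probe hsa-miR-34b*, among the 10 highest by mean net liver signal (1309), was above background on 0 of 12 arrays, and its median was 2.27. On BaP 2 its 4 spots read 62754, 27.6, 11.8 and 9.26. In all, 11 probes with a mean of 200 or more were above background on at most 1 array, each with 1 bright spot, 4 of them brightest on BaP 2.

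As a rough guide to which probes could read a conserved RNA, each was matched by number to the mouse-named probes. Letters, arms, stars and the miR or let prefix were ignored. The star strand hsa-miR-122* was thus matched to miR-122, and hsa-miR-7-2* also to the let-7 probes. A shared number therefore does not show that 2 probes read the same RNA. Of 85 probes with the number of a mouse-named probe seen in liver on all 12 arrays, 21 (24.7%) were themselves above background on every array. Among 146 with the number of a dimmer mouse-named probe the count was 16 (11%). Of the rest, 17 carry a number that RefSeq gives to a mouse miRNA without a probe of its own here (2 on all 12 arrays), a class added after the data were seen. The remaining 344 carry no mouse number, and 52 of them (15.1%) were above background on all 12 arrays. Over all 1735 miRNA probes the share was 19.1%, so only the class of the bright mouse-named numbers lay above it. No difference between these classes was tested.

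For 103 probes a mouse-named probe has the same full name, letters and arm included. In 7 pairs both probes exceeded background in the liver channel of all 12 arrays, in 6 only the human- or rat-named probe did, in 7 only the mouse-named one and in 83 neither. The levels of 2 probes cannot be set against each other, but their ratios to the pool can stand side by side.

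In the 7 pairs seen by both probes the ratios lay on the same side of 0. The 2 miR-20a probes had vehicle ratios of -0.76 ± 0.15 (human name) and -0.73 ± 0.16 (mouse name; SD, n = 6 each, as throughout). For miR-107, which acts in lipid and glucose metabolism, the values were -0.33 ± 0.12 and -0.39 ± 0.12. The miR-17 values were -0.79 ± 0.17 and -1.05 ± 0.18, and those of miR-106a -0.78 ± 0.15 and -1.08 ± 0.17. For miR-23b they were -1.21 ± 0.22 and -1.47 ± 0.13, and for the mesenchymal miR-199a-5p -1.90 ± 0.21 and -1.79 ± 0.16.

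The widest gap of the 7 was that of let-7a, a miRNA of differentiated cells, with -0.60 ± 0.21 on the human-named and -1.30 ± 0.15 on the mouse-named probe. The human-named probe was higher on 12 of 12 arrays, by 0.18 to 0.95. For miR-17 and miR-106a it was also higher on 12 of 12 arrays, by 0.10 to 0.37 and by 0.16 to 0.43.

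The closest match of any pair examined array by array was outside these 7. The rat-named probe rno-miR-200b, for an epithelial miRNA, differed from the probe with the human and mouse names of miR-200b by -0.17 to -0.07 over the 12 arrays. Both moved together between arrays, with SDs of 0.20 and 0.22 and a difference with an SD of 0.0325. Mean vehicle ratios were -1.89 ± 0.21 and -1.78 ± 0.22. Both were dim in liver, with median net signals of 22.2 and 21.1, and were above background there on 8 and 7 of 12 arrays, so on the rest the ratio is to a background liver signal.

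The probe hsa-miR-215 did not follow the mouse-named probe of its own name. Its ratios ran from 2.16 to 3.25 (median 2.69) on BaP arrays and from 2.52 to 3.07 (median 2.69) on vehicle arrays, while those of the mouse-named miR-215 probe ran from -0.21 to -0.03 on BaP arrays and from -0.25 to -0.14 on vehicle arrays. The mouse-named miR-192 probe, by contrast, had a vehicle ratio of 2.89 ± 0.22, and hsa-miR-215 had one of 2.74 ± 0.20. The ratio of hsa-miR-215 minus that of miR-192 lay between -0.27 and -0.07 on the 12 arrays, with an SD of 0.0571, against 0.285 for each ratio. On BaP 2 both were at their lowest (2.16 and 2.33). Which RNA binds the hsa-miR-215 probe was not tested. The comparison with miR-192 was chosen after values were seen.

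Other pairs of one name also parted. The human-named miR-665 and rat-named miR-742 probes were above background on all 12 arrays with vehicle ratios of 0.95 ± 0.32 and 1.40 ± 0.25. Their mouse-named partners, above background on 8 and 3 arrays, had ratios of -0.59 ± 0.12 and -0.13 ± 0.03. Conversely, the mouse-named miR-489 and miR-582-3p probes had ratios of 2.04 ± 0.35 and 1.79 ± 0.28, and the human-named probes of the same names were above background in neither channel on any array. For miR-129-3p the values were -2.23 ± 0.56 on the human-named probe and 0.50 ± 1.03 on the mouse-named one, the second with an SD larger than its mean.

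The probes were also grouped by family. The placental C19MC cluster on human chromosome 19 has no counterpart in mice. Of the 55 probes listed for it 10 (18.2%) were above background on all 12 arrays, beside 15.4% of the 592 and 19.1% of all 1735 miRNA probes. That list was drawn by number and takes in miR-513 and miR-514, which belong to the X-linked cluster. The 2 probes named hsa-miR-513a are among the 10. The brightest of the 55 was hsa-miR-519d, with net liver signals from 281 to 890 (median 496) on BaP arrays and from 316 to 1193 (median 675) on vehicle arrays. Of the 24 X-linked cluster probes, 6 were above background on all 12 arrays, led by hsa-miR-888* with a median of 877. The probe hsa-miR-506 of that cluster was the only 1 of the 592 seen in liver on all 12 arrays and in the pool on none. Its median net liver signal was 52.9. Thresholds were higher in the pool channel (33.3 to 89.6 intensity units) than in the liver channel (1.92 to 28.8). In the main scaling (loess on each array) it was at least 1.93-fold higher in liver on vehicle arrays. It was not among the probes that were 2-fold higher under every scaling tried.

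None of the 20 miR-548 probes was above background on all 12 arrays, and only hsa-miR-548e was above it on any (3 arrays), which leaves 19 of 20 on no array, beside 57.1% of the 592. Of the 5 probes for the stem-cell miRNAs miR-371 to miR-373, none was above background on all 12 arrays, and hsa-miR-371-5p and hsa-miR-373 were so on 1 array each.

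Names listed here as fragments of other RNAs stood at the other end. The list was a fixed set of numbers, chosen with earlier results of these data known. Names outside it, that of the brightest probe hsa-miR-1826 included, were not checked for such an origin. Of the 9 probes in the list, 8 (88.9%) were above background on all 12 arrays: hsa-miR-1280, hsa-miR-1308, hsa-miR-1274a, hsa-miR-1260, hsa-miR-1274b, hsa-miR-886-3p, hsa-miR-1275 and hsa-miR-1246. The lysine transfer RNA names hsa-miR-1274a and hsa-miR-1274b had medians of 564 and 229, and hsa-miR-886-3p, from a vault-like RNA, 77.1. Star strands (15 of 117), rat names (8 of 44) and names of 4 digits (16 of 109) had shares of 12.8%, 18.2% and 14.7%.

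Tissue families were thinly covered by these probes. In the list of liver-enriched numbers 2 of 10 were above background on all 12 arrays, hsa-miR-122* and hsa-miR-192*. The 15 probes of the miR-17 family and its clusters had 3 (hsa-miR-20a, hsa-miR-17 and hsa-miR-106a), and the 4 let-7 and miR-98 probes had 1, hsa-let-7a. The brain list had hsa-miR-138-2* (1 of 2) and the mesenchyme list hsa-miR-199a-5p (1 of 3). None was so among 2 miR-30, 4 miR-34, 4 miR-10, miR-99, miR-100 and miR-125, 3 muscle, 6 blood cell, 2 endothelial and 3 epithelial probes, whose brightest above background on any array were hsa-miR-34c-3p, hsa-miR-125b-2*, rno-miR-1*, hsa-miR-486-5p, hsa-miR-221* and rno-miR-200b, with none for miR-30.

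The second comparison set liver against the pool. The pool is no sample of a group, so no test was made, and with all arrays in 1 dye orientation a probe's dye bias and its ratio cannot be told apart. The liver label held on the mouse-named probes: miR-122, the main miRNA of hepatocytes, had a ratio of 3.85 ± 0.16 on BaP arrays and 3.72 ± 0.15 on vehicle arrays, and the muscle miRNA miR-1 was above background in no liver and in the pool on 12 of 12 arrays. Of the human- or rat-named probes that at least 3 vehicle livers showed, 25 (19.8%) were on average at least 2-fold higher in liver and above the pool on all 6 vehicle arrays, against 15.3% of all miRNA probes. Of the 180 seen in the pool on as many arrays, 11 (6.11%) lay 2-fold or more below it in liver, against 12.1% of all. On BaP arrays the counts were 21 and 10, of which 19 and 10 were the same probes.

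The split depends on the scaling. Without normalization within arrays 8 probes were 2-fold higher and 38 lower, and with median centring 9 and 29; these scalings moved the median ratio of all 475 tested probes by -0.67 and -0.53. With signals as processed by the scanner software the counts were 45 and 31, and with plain background subtraction 49 and 43. Relative to the median ratio of all tested probes (0.17) they were 16 and 11. With loess and these 4 other scalings alike, 8 probes were 2-fold higher and 11 lower. The higher 8 were hsa-miR-122*, hsa-miR-25*, hsa-miR-1264, hsa-miR-888*, hsa-miR-215, hsa-miR-1280, hsa-miR-1260 and hsa-miR-519d.

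The highest ratio was that of hsa-miR-122*, the star strand of the hepatocyte miRNA miR-122. It ran from 4.30 to 5.72 (median 4.91) on BaP arrays and from 4.76 to 5.84 (median 4.93) on vehicle arrays, with means of 4.95 ± 0.49 on BaP and 5.06 ± 0.40 on vehicle arrays, the second a 33.3-fold difference. Its net signal had a median of 1478 in liver but 58.1 in the pool, where it was above background on 10 of 12 arrays. The 2 groups overlapped throughout.

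The star-strand probe hsa-miR-25* came second, with 4.90 ± 0.43 on vehicle arrays. The mouse-named miR-25 probe, for the other strand, had -0.62 ± 0.11. The rat-named probe of the same star strand, rno-miR-25*, was above background in liver on 0 of 12 arrays, with a median net signal of 11.3. On BaP arrays hsa-miR-25* ran from 0.53 to 5.31 (median 4.71), and on vehicle arrays from 4.25 to 5.44 (median 4.97). The value of 0.53 was that of BaP 2 alone, where its 4 spots read 46.0 to 72.4, none of them flagged. Its net liver signal (mean of 4 spots) was 842 to 2940 on the other BaP arrays and 789 to 2321 on vehicle arrays. In the pool channel the probe was only 0.08 (log2) above the other arrays on BaP 2.

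Next were hsa-miR-1264 with 2.80 ± 0.34 on BaP arrays and 3.17 ± 0.24 on vehicle arrays, and hsa-miR-888* with 2.95 ± 0.28 and 3.00 ± 0.14. Both had no mouse-named probe of their number on the array. The transfer RNA names hsa-miR-1280 and hsa-miR-1260 had 2.74 ± 0.24 and 2.55 ± 0.33 on BaP arrays, and 2.69 ± 0.18 and 2.67 ± 0.25 on vehicle arrays. The probe hsa-miR-519d had 2.39 ± 0.40 on BaP arrays and 2.56 ± 0.24 on vehicle arrays. In humans miR-519d carries the seed of the miR-17 family, whose mouse-named miR-17 probe had a vehicle ratio of -1.05 ± 0.18, on the other side of 0. The last of the 10 highest were hsa-miR-589 (1.78 ± 0.20) and hsa-miR-1274b (1.60 ± 0.14) on vehicle arrays.

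Several probes at the low end carry names of other tissues, but such names also stood above 0. On vehicle arrays the placental-cluster hsa-miR-519d had 2.56 and the brain-list hsa-miR-138-2* had 0.94. The muscle probe hsa-miR-133b was above background in 0 of 6 vehicle livers and in the pool on all 6 arrays, and its signal was at least 14.1-fold lower in liver. Here and for the other bounds at the low end, the liver level was taken as the lowest signal above background on each array. For the bound of hsa-miR-506, higher in liver, the pool level was taken in that way. The gonadal hsa-miR-202* and the ciliated-cell hsa-miR-34c-5p, likewise above background in 0 of 6 vehicle livers, had bounds of at least 7.49-fold and at least 4.71-fold. For hsa-miR-136*/rno-miR-136* it was at least 1.89-fold. These bounds hold for each probe's own signals in the main scaling and leave out its dye bias. The mouse-named miR-133b, miR-202-5p, miR-34c and miR-136* probes lay less far below the pool. Their vehicle ratios were -2.04 ± 0.82, -1.13 ± 0.17, -1.82 ± 0.21 and -0.59 ± 0.12. Each was above background in liver on 0 of 12 arrays, so these ratios are to a background liver signal. Whether both probes of a number read the same RNA was not tested.

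The neural probes hsa-miR-9* and hsa-miR-129-3p, seen in 3 and 2 of 6 vehicle livers, had vehicle ratios of -2.20 ± 0.25 and -2.23 ± 0.56, partly to a background signal. The probe hsa-miR-129* had -1.55 ± 0.43. Of the 2 probes for vascular and mesenchymal numbers, hsa-miR-199a-5p had -1.90 ± 0.21, and hsa-miR-424 had -1.83 ± 0.22 beside -1.46 ± 0.24 on the mouse-named miR-322 probe. In liver hsa-miR-424 was above background on 3 of 6 vehicle arrays and the mouse-named miR-322 probe on 1 of 12 arrays, so both ratios are in part to a background liver signal. Both rno-miR-200b and hsa-miR-23b, whose values are given with their mouse-named partners, complete the 10 lowest. These 10 probes had negative ratios on all 6 BaP arrays as well.

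The third comparison asked whether BaP changed the signal of these probes. Of the 592, 130 exceeded background in at least 3 livers of a group and entered 1 fit with all 475 such miRNA probes. The other 462 were not tested. No probe of the 130, nor of the 475 (0%), passed an adjusted p of 0.05 in limma (Benjamini-Hochberg over 475), where the lowest value was 0.995. Without adjustment 1 of 130 had p under 0.05, beside 3 of 475 (0.632%). With no differences at all, 6.5 of 130 would be the average count. The exact permutation test over the 12 arrays, two-sided over all 924 regroupings, called 0 after adjustment and 1 of 130 before. In no probe were the 2 groups apart without overlap.

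The differences were small. BaP minus vehicle was above 0 for 45 of the 130 probes and below 0 for 85, with a median of -0.02 (-0.0048 over all 475). That split is set by the scaling: 97 were above 0 with median centring and 27 without normalization. The 95% interval of the difference lay within a 2-fold change for all but 5 of 130 probes and within 1.5-fold for 116. No label names the animal behind an array, and the p-values reflect the spread between these samples, which may be partly technical.

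The smallest p belonged to hsa-miR-1264. Its ratio ran from 2.41 to 3.29 (median 2.84) on BaP arrays and from 2.94 to 3.56 (median 3.09) on vehicle arrays, so the groups overlapped. The difference was -0.37 (95% interval -0.71 to -0.02, limma unadjusted p = 0.0374, adjusted p = 0.995, exact permutation p = 0.0649). Within the 4 scan days it was -0.27, -0.18, -0.65 and -0.17, below 0 on each, which held for 9 of the 130 probes, while 6 were above 0 on each. Over 23 settings it stayed between -0.46 and -0.18, and its lowest adjusted p in limma was 0.844.

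The probe hsa-miR-636, dim in both channels, was the 1 with an exact permutation p under 0.05. Its ratio ran from 0.22 to 0.35 on BaP arrays and from 0.15 to 0.26 on vehicle arrays, a difference of 0.06 (95% interval -0.03 to 0.16, exact permutation p = 0.0368, limma adjusted p = 0.995). The bright hsa-miR-1827 had 1.16 ± 0.24 on BaP arrays and 0.98 ± 0.15 on vehicle arrays, a difference of 0.17 that was 0.09 without BaP 2. The remaining probes among the 10 smallest p were hsa-miR-664, rno-miR-347, hsa-miR-891a, hsa-miR-513a-5p, hsa-miR-766, hsa-miR-1249 and hsa-miR-1281, with differences of -0.19, -0.10, -0.18, 0.11, -0.26, -0.31 and -0.40. Without vehicle 5 that of hsa-miR-664 was -0.09 and that of hsa-miR-766 was -0.06.

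By list, 0 members passed the test in any direction. Of the 11 probes tested in the C19MC list, 4 had a difference above 0 and 7 below it (median -0.02), and of 6 X-linked cluster probes 1 and 5 (median -0.07). The X-linked hsa-miR-513a-5p and hsa-miR-513a-3p are counted in both lists, and the C19MC median is the value of hsa-miR-513a-3p. The 8 tested fragment names had 2 above and 6 below 0 (median -0.05), and the 4 liver-enriched numbers were all below 0 (median -0.10), hsa-miR-885-5p among them with a value set by 1 array. Of 24 star strands 7 were above and 17 below 0 (median -0.03), against 224 above and 251 below over all 475 probes (median -0.0048).

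The liver-enriched hsa-miR-122* differed by -0.11 (95% interval -0.61 to 0.40), and hsa-miR-215 by -0.05 (-0.39 to 0.29) beside -0.03 (-0.37 to 0.32) for the mouse-named miR-192 probe. The human-named let-7a probe differed by -0.03 (-0.26 to 0.20), and the mouse-named one by 0.14 (-0.10 to 0.39). The 2 intervals overlapped, and the difference between them was not tested.

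Several of the larger differences came from 1 array each. The largest in size, hsa-miR-25* with -0.75 (95% interval -2.22 to 0.73), was -0.02 (-0.48 to 0.44) without BaP 2. The highest, hsa-miR-1246 with 0.37, was 0.05 (-0.06 to 0.15) without BaP 4, on which its 4 spots read 270 to 380 while its net liver signal was 21.8 to 34.2 on the other BaP arrays and 20.7 to 45.3 on vehicle arrays. Among the 5 probes with intervals beyond 2-fold, the other 3 (hsa-miR-1281, hsa-miR-483-3p and hsa-miR-885-5p) fell within 2-fold without vehicle 5.

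On vehicle 5, 8 of the 130 tested probes (6.15%) had a liver signal at least 2-fold above the median of the other arrays, against at most 1 on any other array. They were hsa-miR-885-5p (3.94-fold), hsa-miR-642 (3.23-fold), hsa-miR-574-3p (2.58-fold), hsa-miR-483-3p (2.55-fold), hsa-miR-625* (2.35-fold), hsa-miR-1281 (2.31-fold), hsa-miR-551a (2.27-fold) and hsa-miR-1249 (2.01-fold). Their pool signals on that array differed from the other arrays by only -0.05 to 0.17 (log2). Other classes of probe were raised there too: 6 of 212 mouse-named (2.83%), 7 of 114 miRPlus (6.14%) and 3 of 19 viral probes (15.8%).

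For hsa-miR-885-5p, the most raised, the net liver signal ran from 13.3 to 30.6 (median 19.7) on BaP arrays and from 15.7 to 27.1 on the other 5 vehicle arrays, and was 442 on vehicle 5. Its difference of -0.48 became -0.06 without vehicle 5. The differences of the other 7, between -0.40 and -0.31 with all arrays, lay between -0.08 and -0.04 without it. What set vehicle 5 apart was not tested. Its mean correlation with the other arrays over the 130 probes, which are not independent replicates, was 0.877, beside 0.886 for BaP 2 and 0.948 or more for the other arrays.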

How the data were processed

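Small RNAs were measured in 12 liver samples, 6 per group as the labels assign them. Numbers of replicates are in accession order, as names only. The authors deposited linear spot intensities. The submitters' processing notes name Agilent Feature Extraction 9.5.3.1. They are not normalized. The authors' deposited value table gives a score per probe, a log ratio of unstated base for 248 probes. Across probes it correlates at -0.97 to -0.94 with liver over reference, and it was not used.

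In R 4.3.3, limma 3.58.1 corrected background by normexp with an offset of 50, then ratios by loess on each array, giving control and flagged spots a weight of 0. Unflagged spots of a probe were averaged, or all 4 where all were flagged (43 of 1560 values of the tested probes). Net signals average all 4 spots. The test was lmFit and eBayes with Benjamini-Hochberg adjustment, first tested on simulated data. Scan times put the arrays on 4 days, each with both groups. No 2 arrays were repeats: the closest pair, BaP 6 and vehicle 6, differed with an SD of 0.0937 (log2), the median pair with 0.276.

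The members and lists were chosen with earlier results of these data known. Probes were named by rule: the 10 brightest, the 10 highest and 10 lowest vehicle ratios, the 10 smallest p for BaP, those raised at least 2-fold on 1 array, and the brightest of each list. A liver signal raised on 1 array was judged after subtracting the array's 75th percentile. The alternatives were other background corrections and normalizations, the liver channel alone, other filters and thresholds, scan day as a block and leaving out each array. Precision is limited by the number of arrays.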

Additional observations from a re-analysis of the deposited data

Results flagged for a closer look

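Named probes were looked at for 1 array far from the other 5 of its group, which chance gives in about 1 of 20 sets. It was met in 20 of 104 sets of 6 ratios, and 10 of these 20 were on vehicle 5. Of these 10, 8 were named because their liver signal was raised on that array, as hsa-miR-1246 was on BaP 4, so the count is fixed in part by the choice of probes and cannot be read against 1 in 20. There the log2 liver over reference ratio was 2.67 for hsa-miR-885-5p (others -0.11 to 0.27), 2.62 for rno-miR-1* (-0.13 to -0.05), 2.22 for hsa-miR-551a (0.57 to 1.09), 2.20 for hsa-miR-1281 (0.06 to 0.46) and 2.14 for hsa-miR-483-3p (-0.11 to 0.38). It was 2.13 for hsa-miR-574-3p (0.37 to 0.67), 1.76 for hsa-miR-625* (-0.07 to 0.24), 1.64 for hsa-miR-642 (-0.30 to -0.02), 1.60 for hsa-miR-1249 (-0.12 to 0.37) and 1.40 for hsa-miR-766 (0.11 to 0.41).

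On BaP 2, hsa-miR-25* read 0.53 (4.55 to 5.31 on the other BaP arrays), and on BaP 4 hsa-miR-1246 read 1.41 (-0.61 to -0.45). On BaP 1 the ratio was 3.20 for hsa-miR-1280 (2.57 to 2.77), 1.06 for hsa-miR-551a (0.59 to 0.76), -2.04 for hsa-miR-129* (-1.49 to -1.34), -2.92 for hsa-miR-129-3p (-2.12 to -1.92) and -0.28 for hsa-miR-221* (-0.11 to -0.06). On vehicle 1 it was 5.84 for hsa-miR-122* (4.76 to 5.05), -3.30 for hsa-miR-129-3p (-2.27 to -1.75) and -5.02 for hsa-miR-133b (-3.93 to -3.37). BaP 1 and vehicle 1 are the arrays of the first scan day, with the lowest liver thresholds; the part of scan day in these values was not tested.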

How the results depend on the processing

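No probe of the 592 passed the adjusted p in any of the alternatives run, including 3 added after the data were seen. The count above background on all 12 arrays (91) was 70 to 97 under the other thresholds but 1. With the highest negative control spot it was 0, because 1 control spot on BaP 3 read 34864. Control spots also reached 804 on BaP 5 and 177 on BaP 6, so without BaP 3 this threshold would still be high there. The count of probes 2-fold higher in liver (25) was 8 without normalization, 9 with median centring, 45 with processed signals, 49 with plain background subtraction, and 16 relative to the median of all tested probes, an alternative added after the data were seen. The count of 2-fold lower probes (11) was 38, 29, 31 and 43 in the first 4 of these. Leaving out single vehicle arrays gave 22 to 27 higher and 10 to 11 lower. Of the differences between BaP and vehicle for the 10 named probes and hsa-miR-25*, only that of rno-miR-347 turned round in any alternative fitted for them, to 0.0169 in the liver channel alone scaled by the 75th percentile; the cause was not tested. With scan day as a block the smallest adjusted p was 0.844. The labels state no pairing, but the title codes of the 2 groups end in the same 6 digits. With that digit as a replicate block, the last of the added alternatives, 0 probes passed, 3 had an unadjusted p under 0.05, and the smallest adjusted p was 0.854. Deviations from the group means correlated at 0.36 to 0.77 in the 5 digit pairs that share a scan day and at -0.06 in the other. Of the 12 arrays, 10 correlated best with their own digit. Digit and scan day cannot be told apart in those 5 pairs, so whether the digits pair the samples stayed unsettled. The main test treats the groups as unpaired. The comparison of the deposited value table was not run, since it holds none of these probes. Dim probes, most of the 592, limit what could be seen.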

Other observations

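Besides hsa-miR-25*, another probe stood low on BaP 2 and was looked at after its values were seen. The mouse-named miR-184 probe also read low there, with a log2 liver over reference ratio of 0.38 on BaP 2, beside 1.85 to 2.71 on the remaining 5 BaP arrays and 1.98 to 2.88 on vehicle arrays.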
